A study of Rattus norvegicus with 4 samples.

Results

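The transcripts of 10 genes listed as published targets of the miR-25/92 seed family were followed in neonatal rat cardiomyocytes given miRNA mimics. The genes are Map2k4, Dusp10, Hipk3, Fbxw7, Mylip, Klf2, Klf4, Tob1, Fbn1 and Nox4. They were picked by symbol from a list of reported targets, with earlier results of these data known. All 10 were found once each among the 15731 genes measured.

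The study transfected primary heart muscle cells with a mimic, a synthetic double of a mature miRNA, and sequenced their RNA to see which transcripts each miRNA of the miR-106b-25 cluster changes. The cells were ventricular cardiomyocytes of wild-type Wistar rats at postnatal day 1 (day 0 in the treatment label), enriched by letting faster-adhering cells attach to plastic first. Each of the 4 libraries came from a culture transfected in Lipofectamine RNAiMAX with 1 mimic: hsa-miR-25-3p, hsa-miR-93-5p, hsa-miR-106b-5p or, as control, cel-miR-67, a miRNA of the worm Caenorhabditis elegans. RNA was taken 72 h after transfection, and the mimic dose is 25 nM in one label and 25 mM in another and in the methods. How many animals went into a culture is not given in the sources used here. There was 1 library for each mimic, so no difference between mimics has a replicate check and no p-value is given.

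A miRNA guides the Argonaute protein to messenger RNAs whose 3′ untranslated region pairs with its seed, bases 2 to 8 counted from the 5′ end, and the transcript is then degraded or translated less. miRNAs with the same seed can therefore act on the same transcripts whatever the rest of their sequence. miR-25 lies in an intron of Mcm7 beside miR-106b and miR-93, but shares its seed with the miR-92 miRNAs and not with these neighbours.

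The mature sequences are shown because the seed is what separates the mimic expected to reach the 10 genes from the other mimics. They are the rat sequences of RefSeq on build GRCr8, written 5′ to 3′ with the seed in capitals. The miR-25 seed stood in 5 mature miRNAs of the reference:
rno-miR-25-3p: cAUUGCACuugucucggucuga
rno-miR-92a-3p: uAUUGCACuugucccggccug
rno-miR-92b-3p: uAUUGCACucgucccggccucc
rno-miR-32-5p: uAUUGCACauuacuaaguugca
rno-miR-363-3p: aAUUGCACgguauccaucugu

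The other mimics share a second seed between them:
rno-miR-106b-5p: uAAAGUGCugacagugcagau
rno-miR-93-5p: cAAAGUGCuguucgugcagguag

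The seeds AUUGCAC and AAAGUGC have the same base at 3 of 7 positions. Read as the complementary site on a transcript they are GUGCAAU and GCACUUU. Outside the seed the miR-25 family varies, and aligned from the 5′ end miR-92a-3p equals miR-25-3p at 18 of 21 positions, miR-32-5p at 13 of 22 and miR-363-3p at 8 of 21. miR-25-3p lies at chr12:22156652-22156673, miR-93-5p at chr12:22156894-22156916 and miR-106b-5p at chr12:22157103-22157123, all on the minus strand. Whether the 3′ untranslated regions of the 10 genes hold these sites was not analysed here.

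Levels are given as RPKM, the authors' deposited unit, in which reads are divided by gene length and library size. Differences are log2 ratios of RPKM, computed without a pseudocount in genes above RPKM 1.0 in both libraries, and a gene was called lower or higher past 1.3-fold (0.38 on the log2 scale). The 95% exact interval in parentheses comes from the reads recovered behind the RPKM values and covers counting error only, not the variation between cultures. Reads on the listed genes numbered 15175309 to 18797375 a library. The methods of the study state far fewer reads per sample, and the exact intervals rest on the recovered numbers. Cardiomyocyte transcripts were checked on 7 of 8 markers listed once, and the lowest RPKM of any of them in any library was 15.9. All 8 fibroblast markers also lay above RPKM 1.0 in every library. All 7 cardiomyocyte markers were lower past 1.3-fold with miR-25, against 22.6% of all genes, and Tnni3 fell furthest, from 351 to 15.9. The counts were 3 lower and 1 higher both with miR-106b and with miR-93. Summed RPKM of the 7 was 11735 with cel-miR-67, 7628 with miR-25, 9454 with miR-106b and 7161 with miR-93. Their median RPKM was 351, 159, 543 and 495 in the same order, so the sum and the median rank the libraries differently. The median log2 ratio of the 7 markers over cel-miR-67 was -0.98 with miR-25, -0.21 with miR-106b and -0.21 with miR-93.

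With the miR-25 mimic 6 of the 9 members tested were lower than with cel-miR-67, namely Hipk3, Fbn1, Map2k4, Klf4, Dusp10 and Mylip. Over all 11198 genes tested 22.6% were lower past 1.3-fold. Klf2 was the only member on the higher side of 1.3-fold, where 19.3% of all genes lay, and its interval held 0. Fbxw7 and Tob1 did not pass 1.3-fold, and Nox4 was below the RPKM limit. The exact interval lay below 0 for 8 of the 9 members, against 34.5% of all genes. The median log2 ratio of the 9 members was -0.56, against -0.01 over all genes. Among all genes tested the middle 50% of the log2 ratios ran from -0.33 to 0.29. Of the genes past 1.3-fold 53.9% were lower, and 35.2% when RPKM was scaled to the reads on the listed genes, under which 5 of the 6 members were still called.

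The mimics of the other seed gave other counts. With miR-106b 1 member was lower (Fbn1) and 1 higher (Klf2), against 12.7% and 11.9% of 11296 genes. With miR-93 1 member was lower (Hipk3) and none higher, against 15.6% and 15.1% of 11280 genes. A share of 1 in 9 is close to these backgrounds. Intervals below 0 numbered 3 of 9 with each mimic, against 27.4% (miR-106b) and 29.5% (miR-93) of all genes. The members' median log2 ratio was -0.08 for miR-106b and 0.03 for miR-93. These ratios share the 1 control library, so an unusual value there enters all 3 of them.

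**Figure D1:**
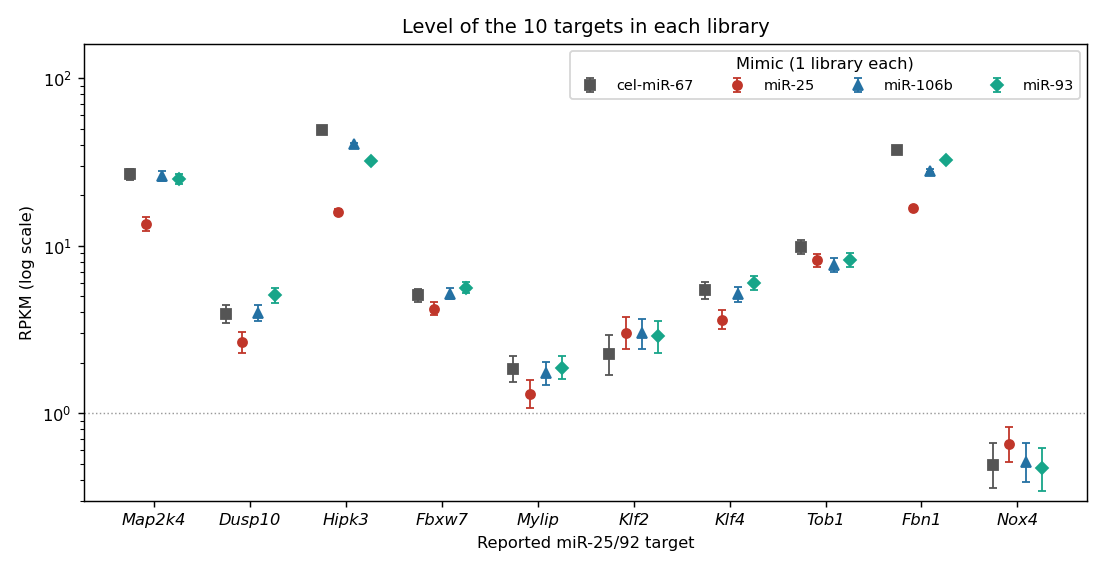
RPKM on a log axis for each of the 10 genes in the 4 libraries, 1 point a library, with 95% exact Poisson intervals of the reads as bars and the RPKM limit of 1.0 dotted. For 7 genes the miR-25 point is the lowest of the 4, as it is for 36.5% of all 10984 genes above the limit in every library. Nox4 lies below the limit in every library.

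**Figure D2:**
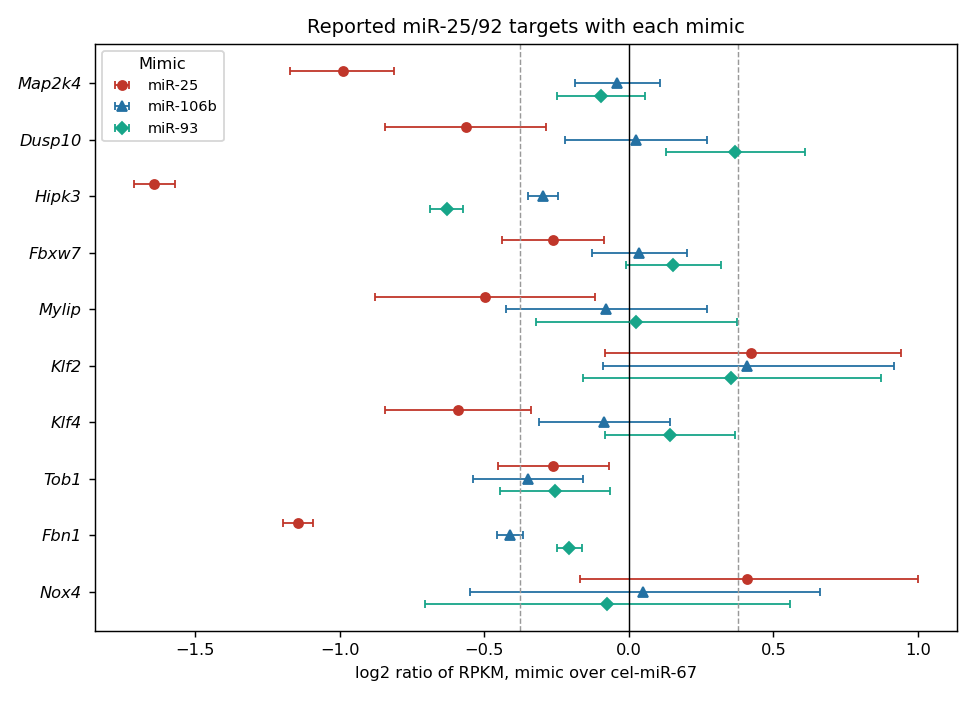
log2 ratio of RPKM over cel-miR-67 for each of the 10 genes and each mimic, with 95% exact intervals from reads as bars and 1.3-fold dashed. The miR-25 points of Hipk3, Fbn1 and Map2k4 lie near or beyond -1, and Klf2 lies right of 0 with all mimics with intervals that hold 0.

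In cells given cel-miR-67 the 10 genes spanned a wide range of levels. Hipk3 was highest at RPKM 49.4, followed by Fbn1 at 37.3, Map2k4 at 26.8 and Tob1 at 9.81. Klf4 at 5.44 and Fbxw7 at 5.06 were not separated by their exact Poisson intervals, 4.84 to 6.10 and 4.63 to 5.51. Dusp10 followed at 3.91, with an interval of 3.43 to 4.44. Klf2 at 2.26 and Mylip at 1.84 also had overlapping intervals, and Nox4 was lowest at 0.494. The number of reads set how closely a ratio could be read, and it depends on gene length as well as level. In the control Fbn1 rested on 8359 reads, Map2k4 on 678 and Nox4 on 42.

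The 3 signalling members were a kinase, a phosphatase and a nuclear kinase. Map2k4 (ENSRNOG00000003834) encodes the kinase that phosphorylates JNK and p38. Its level was RPKM 26.8 with cel-miR-67, 13.5 with miR-25, 26.1 with miR-106b and 25.1 with miR-93. Only the miR-25 library stood apart, and the other mimics lay within 1.07-fold of the control. The log2 ratio was -0.99 (-1.17 to -0.81) with miR-25, which placed Map2k4 at rank 575 from the lowest of 11198 genes. For miR-106b it was -0.04 (-0.19 to 0.11), and for miR-93 -0.10 (-0.25 to 0.05).

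Dusp10 (ENSRNOG00000004003) encodes a phosphatase that switches JNK and p38 off, acting against Map2k4 in the same cascade. Dusp10 stood at RPKM 3.91 with cel-miR-67, 2.65 with miR-25, 3.98 with miR-106b and 5.05 with miR-93. The control and miR-106b libraries were alike, miR-25 was lowest and miR-93 highest. Its log2 ratio was -0.56 (-0.85 to -0.29) with miR-25, 0.02 (-0.22 to 0.27) with miR-106b and 0.37 (0.13 to 0.61) with miR-93, the last just short of the call at 1.29-fold. Both the kinase and the phosphatase of the cascade were therefore lower with miR-25.

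Hipk3 (ENSRNOG00000011358) belongs to the homeodomain-interacting protein kinases, which phosphorylate transcription factors. The Hipk3 level was RPKM 49.4 with cel-miR-67, 15.8 with miR-25, 40.2 with miR-106b and 31.9 with miR-93, from 2207 to 6123 reads. The miR-25 value was the lowest and all 3 mimics were below the control. With miR-25 Hipk3 fell to 32.0% of the control, a log2 ratio of -1.64 (-1.71 to -1.57), which was rank 109 from the lowest over all genes tested. It was also lower with miR-93, at -0.63 (-0.69 to -0.57), and stood at -0.30 (-0.35 to -0.24) with miR-106b, short of 1.3-fold.

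The counts of the gene and marker lists below stand beside these shares of all genes tested. With miR-25 22.6% were lower and 19.3% higher past 1.3-fold, with miR-106b 12.7% and 11.9%, and with miR-93 15.6% and 15.1%. No other gene of the JNK and p38 cascade was called lower with miR-25. Of 14 cascade genes tested 5 were higher past 1.3-fold, 3 had intervals below 0 without reaching 1.3-fold, and the median log2 ratio was 0.19. The largest ratios were those of Mapk8ip1, a scaffold of the JNK cascade, at 0.74 (0.57 to 0.92), Mapk9, a JNK gene, at 0.66 (0.57 to 0.76), and the kinase Map3k10 at 0.55 (0.23 to 0.87). With miR-106b 3 of these genes were lower and 1 higher, and with miR-93 2 and 1. Of 10 other dual specificity phosphatases 3 were lower and 4 higher with miR-25. Dusp4, which acts on nuclear MAP kinases, was lower at -1.14 (-1.27 to -1.01), while Dusp5 at 1.22 (0.93 to 1.53) and Dusp14 at 1.03 (0.77 to 1.29) were higher. The relatives of Hipk3 did not pass 1.3-fold with miR-25, with Hipk1 at 0.11 and Hipk2 at -0.19.

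Fbxw7 and Mylip recognise proteins that are to be marked with ubiquitin for destruction. Fbxw7 (ENSRNOG00000010889) is the substrate-binding subunit of an SCF ligase that takes cyclin E, Myc, Jun and Notch. Its level was RPKM 5.06 with cel-miR-67, 4.21 with miR-25, 5.18 with miR-106b and 5.63 with miR-93. The miR-25 library was the lowest by a small margin. Its log2 ratio with miR-25 was -0.26 (-0.44 to -0.09), an interval below 0 but short of 1.3-fold. With miR-106b it was 0.03 (-0.13 to 0.20) and with miR-93 0.15 (-0.01 to 0.32).

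Mylip (ENSRNOG00000017579), also called Idol, is a ligase induced by the sterol receptor LXR that degrades the LDL receptor. Mylip was read at RPKM 1.84 with cel-miR-67, 1.303 with miR-25, 1.74 with miR-106b and 1.87 with miR-93. Between 109 and 159 reads a library lay behind these values, so the intervals were wide. The log2 ratio was -0.50 (-0.88 to -0.12) with miR-25, -0.08 (-0.42 to 0.27) with miR-106b and 0.03 (-0.32 to 0.37) with miR-93. The miR-25 ratio was the only one whose interval lay off 0. Its call was lost at a 1.5-fold limit, at an RPKM limit of 2.0, with a pseudocount of 1 RPKM, and when RPKM was scaled to the reads on the listed genes.

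Among 8 genes of the SCF ligase core 1 was lower and none higher with miR-25. That gene was Rbx1, the RING subunit, at -0.46 (-0.64 to -0.28). Among 8 genes that encode Fbxw7 substrates 4 were lower and 1 higher, with a median of -0.48. Myc stood at -1.07 (-1.47 to -0.68), Ccne2 (cyclin E2) at -0.92 (-1.07 to -0.76) and the mitotic kinase Aurka at -0.86 (-1.13 to -0.59). Ccne2 was also lower with miR-106b, at -0.54 (-0.68 to -0.41), and with miR-93, at -0.66 (-0.80 to -0.51). Aurka was higher with miR-106b, at 1.27 (1.08 to 1.47), and with miR-93, at 0.82 (0.62 to 1.02). Fbxw7 acts on the proteins of these genes, which were not measured. Among 10 Mylip substrates and LXR genes 3 were lower and 2 higher with miR-25, with a median of 0.17. They included the lipoprotein receptors Vldlr at -1.19 (-1.27 to -1.11) and Lrp8 at -0.89 (-1.12 to -0.66) and the deubiquitinase Usp2 at -0.73 (-0.98 to -0.49). Vldlr was lower still with the other seed, at -1.64 (-1.73 to -1.56) with miR-106b and -1.95 (-2.04 to -1.85) with miR-93.

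The regulators of transcription and of messenger RNA did not move as a group. Klf4 (ENSRNOG00000016299) is a zinc finger transcription factor known as a pluripotency factor and for slowing smooth muscle growth. Its level was RPKM 5.44 with cel-miR-67, 3.61 with miR-25, 5.13 with miR-106b and 6.00 with miR-93. The miR-25 library was again the lowest. The log2 ratio was -0.59 (-0.85 to -0.34) with miR-25, -0.09 (-0.31 to 0.14) with miR-106b and 0.14 (-0.08 to 0.37) with miR-93.

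Klf2 (ENSRNOG00000014205), a related factor best known for its response to blood flow in endothelium, had its lowest value in the control. RPKM was 2.26 with cel-miR-67, 3.02 with miR-25, 2.99 with miR-106b and 2.88 with miR-93. The 3 mimic libraries were alike and the control was lowest, on 54 reads against 83 to 94. The log2 ratio was 0.42 (-0.08 to 0.94) with miR-25, 0.41 (-0.09 to 0.92) with miR-106b and 0.35 (-0.16 to 0.87) with miR-93. Every interval held 0, so a difference from the control was not detectable at this depth. These intervals also leave room for a rise of up to 0.94 with miR-25, and for a decrease no larger than -0.08.

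Tob1 (ENSRNOG00000002828), an antiproliferative protein that brings the CCR4-NOT deadenylase to messenger RNAs, had its highest level in the control. The values were RPKM 9.81 with cel-miR-67, 8.18 with miR-25, 7.69 with miR-106b and 8.21 with miR-93. The 3 mimics gave nearly equal values. The log2 ratio was -0.26 (-0.45 to -0.07) with miR-25, -0.35 (-0.54 to -0.16) with miR-106b and -0.26 (-0.45 to -0.06) with miR-93, none past 1.3-fold.

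Of 8 further Kruppel-like factors tested 5 were lower and 1 higher with miR-25, with a median of -0.43. Klf15 stood at -0.71 (-1.15 to -0.27), Klf6 at -0.47 (-0.60 to -0.35) and Klf9 at 0.67 (0.52 to 0.83). Klf6 was also lower with miR-106b, at -0.44 (-0.56 to -0.32), and with miR-93, at -0.67 (-0.80 to -0.54). Of 14 genes of the BTG/Tob family and the CCR4-NOT complex 2 were lower and 3 higher with miR-25. Btg2, an antiproliferative relative of Tob1, was lower at -0.95 (-1.10 to -0.80), while Cnot11 at 0.68 (0.44 to 0.91) and Btg3 at 0.59 (0.47 to 0.71) were higher. Btg3 was lower with miR-106b, at -0.70 (-0.84 to -0.56), and with miR-93, at -1.10 (-1.26 to -0.94).

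Fbn1 (ENSRNOG00000007302) encodes fibrillin-1, the main protein of extracellular microfibrils. Fbn1 stood at RPKM 37.3 with cel-miR-67, 16.8 with miR-25, 28.0 with miR-106b and 32.3 with miR-93, from 4540 to 8727 reads. All 3 mimics were below the control and miR-25 was the lowest. The log2 ratio was -1.15 (-1.20 to -1.09) with miR-25, at rank 392 from the lowest of all genes tested. It was -0.41 (-0.46 to -0.37) with miR-106b, past 1.3-fold but no longer when scaled to the reads on the listed genes, and -0.21 (-0.25 to -0.16) with miR-93, short of it.

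Fibroblasts make much of the matrix, and their markers were also lower. With miR-25 7 of 8 fibroblast markers were lower and 1, Lum, was higher. Col1a2 stood at -1.87 (-1.91 to -1.84), Tcf21 at -1.62 (-1.89 to -1.37) and Col3a1 at -1.33 (-1.36 to -1.31). The summed RPKM of the 8 markers was 821 with cel-miR-67, 317 with miR-25, 743 with miR-93 and 637 with miR-106b, and no marker was at 0 in any library. The order of these sums is that of Fbn1, but the order of the median RPKM of the 8 markers is not. By that median the miR-93 library lay above cel-miR-67, with miR-106b next and miR-25 still lowest. Counted by marker, 5 of 8 were lower with miR-106b and 4 of 8 with miR-93, with none higher. The median log2 ratio of the 8 markers was -1.05 with miR-25, -0.55 with miR-106b and -0.29 with miR-93. The part of fibroblasts in the Fbn1 result was not tested. In these bulk libraries fewer cells of a type and less RNA per cell cannot be told apart.

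Other genes of the microfibril and elastic fibre were mixed. Of 16 tested 7 were lower and 3 higher with miR-25, with a median of -0.21. Eln, the elastin gene, fell from RPKM 52.3 to 4.74, a log2 ratio of -3.47 (-3.61 to -3.33), against -0.56 (-0.62 to -0.49) with miR-106b and -0.24 (-0.30 to -0.18) with miR-93. Fbn2 stood at -1.43 (-1.60 to -1.27) and Mfap4 at -1.40 (-1.69 to -1.12). With miR-106b 6 of 17 tested genes of the list were lower and 1 higher, and with miR-93 9 were lower and 2 higher. Mfap4 was about as low with miR-106b, at -1.36 (-1.63 to -1.09).

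Nox4 (ENSRNOG00000013925) is an NADPH oxidase that makes hydrogen peroxide. RPKM was 0.494 with cel-miR-67, 0.655 with miR-25, 0.511 with miR-106b and 0.468 with miR-93, from 42 to 67 reads. No library reached the limit of 1.0, so Nox4 was not called in any comparison. Its log2 ratio was 0.41 (-0.17 to 1.00) with miR-25, 0.05 (-0.55 to 0.66) with miR-106b and -0.08 (-0.70 to 0.56) with miR-93. All 3 intervals held 0, and a decrease with miR-25 beyond -0.17 lay outside its interval. Of 8 other NADPH oxidase genes tested 3 were lower and 2 higher with miR-25. Ncf1, a cytosolic subunit, stood at -1.29 (-1.64 to -0.94). Poldip2, which binds the Nox4 complex, stood at -0.73 (-0.85 to -0.61).

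**Figure D3:**
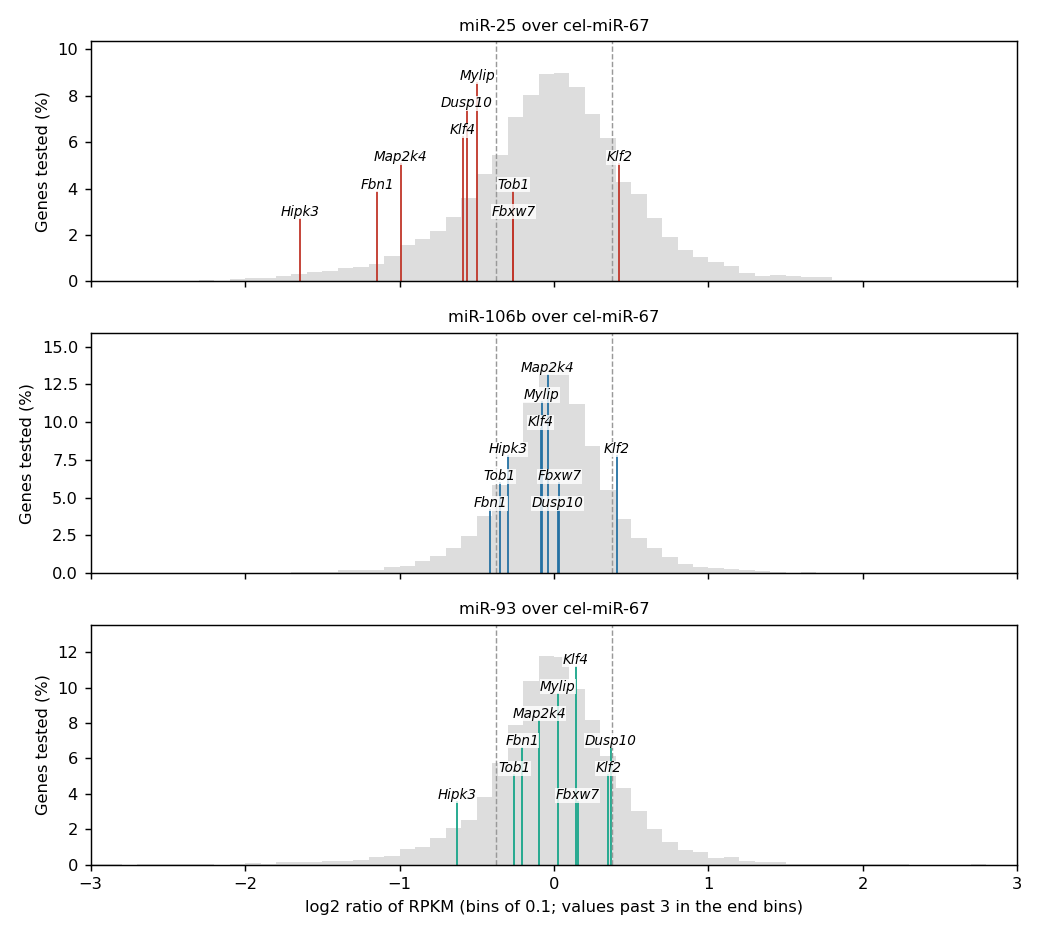
Share of all genes tested in bins of 0.1 of the log2 ratio over cel-miR-67 for each mimic (grey), with the 9 tested members as coloured lines whose heights carry no value and 1.3-fold dashed. With miR-25 Hipk3, Fbn1 and Map2k4 lie in the left tail at -1.64, -1.15 and -0.99, while with miR-106b and miR-93 most members lie between the dashed lines. Outside these lines lay 42% of all genes with miR-25, 24.6% with miR-106b and 30.8% with miR-93.

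Setting the mimics against each other removes the control library from the ratio. Against miR-106b 6 of 9 members were lower with miR-25 and none higher, where 23% and 22.1% of 11183 genes were. These were Hipk3, Map2k4, Fbn1, Dusp10, Klf4 and Mylip, and the median log2 ratio of the 9 was -0.51. Against miR-93 7 were lower and none higher, where 23% and 22.1% of 11198 genes were, and the median was -0.73. The added gene was Fbxw7, at -0.42 (-0.58 to -0.25).

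Hipk3 had the largest differences in both, at -1.35 (-1.42 to -1.28) against miR-106b and -1.01 (-1.09 to -0.94) against miR-93. Map2k4 stood at -0.95 (-1.12 to -0.78) and -0.89 (-1.07 to -0.72), almost the value it had against the control. Fbn1 stood at -0.73 (-0.79 to -0.68) and -0.94 (-0.99 to -0.89). For Dusp10 the difference was larger against miR-93, at -0.93 (-1.19 to -0.68), than against miR-106b, at -0.59 (-0.85 to -0.33), with overlapping intervals. Klf4 stood at -0.51 (-0.75 to -0.26) and -0.73 (-0.97 to -0.49).

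Mylip, the least deeply read of the 6, stood at -0.42 (-0.78 to -0.06) against miR-106b and -0.52 (-0.89 to -0.16) against miR-93. Tob1 did not separate the seeds, at 0.09 (-0.10 to 0.28) and -0.01 (-0.20 to 0.18). Neither did Klf2, at 0.01 (-0.42 to 0.45) and 0.07 (-0.38 to 0.52). For Tob1 these intervals leave out a 1.3-fold difference between miR-25 and either mimic, while for Klf2 they do not.

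Requiring miR-25 to be lower past 1.3-fold against each of the other 3 libraries kept 6 members, the same 6 that were lower against the control. Over all 10984 genes tested in these comparisons 13.7% met that demand. The miR-25 library had the lowest value of the 4 for 7 members, as it did for 36.5% of all genes. These comparisons share the miR-25 library.

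The comparison of miR-93 with miR-106b, which carry the same seed, was added after the data were seen. No member passed 1.3-fold in it, where 8.21% of 11391 genes were lower and 7.3% higher. The largest differences were those of Dusp10, at 0.34 (0.12 to 0.56), and Hipk3, at -0.33 (-0.39 to -0.28). Fbn1 at 0.21 (0.16 to 0.25) and Klf4 at 0.23 (0.02 to 0.44) also had intervals above 0.

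**Figure D4:**
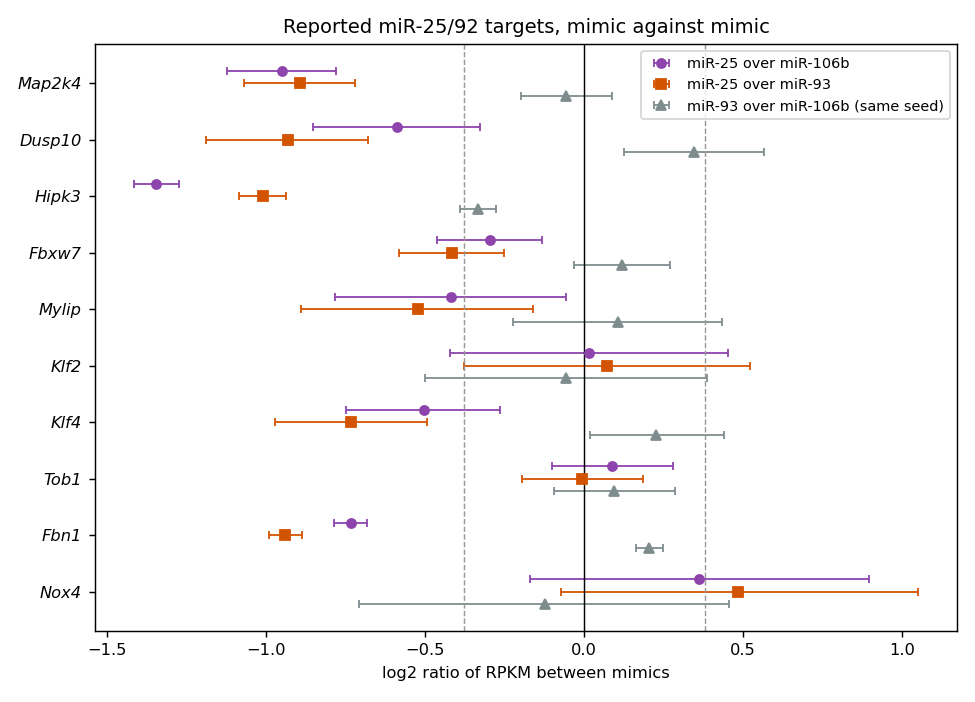
log2 ratio of RPKM between mimics for each of the 10 genes, with 95% exact intervals from reads as bars and 1.3-fold dashed. For Map2k4, Dusp10, Hipk3, Mylip, Klf4 and Fbn1 both miR-25 ratios lie left of the dashed line at -0.38, while every ratio of miR-93 over miR-106b lies between the dashed lines. Over all genes tested 23% were lower past 1.3-fold in each of these miR-25 comparisons. In miR-93 over miR-106b 8.21% were lower and 7.3% higher, so most genes lay between the lines there.

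Another list of 10 genes reported as miR-25 targets, all above the limit, had members called in both directions. With miR-25 5 were lower and 3 higher, against 22.6% and 19.3% of all genes, with a median log2 ratio of -0.26. Atp2a2, the calcium pump of the sarcoplasmic reticulum, fell from RPKM 422 to 103, a log2 ratio of -2.03 (-2.06 to -2.01). In the miR-106b library its RPKM was 434, and in the miR-93 library 565. Itga5, an integrin of fibronectin, stood at -1.69 (-1.77 to -1.61) with miR-25 and was also lower with miR-106b, at -0.49 (-0.55 to -0.43), and with miR-93, at -1.17 (-1.24 to -1.10). Hand2, a transcription factor of the developing heart, was lower with miR-25, at -0.94 (-1.12 to -0.76), and higher with miR-93, at 0.56 (0.42 to 0.70). With miR-106b 1 gene of the list was lower and 3 higher, against 12.7% and 11.9% of all genes, and with miR-93 1 was lower and 6 higher, against 15.6% and 15.1%.

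The 10 genes reported as targets of the other seed went differently. With miR-106b 6 were lower and none higher, with a median of -0.60, and with miR-93 7 were lower and none higher, with a median of -0.52. With miR-25 3 were lower and 4 higher, with a median of 0.23. The cell cycle inhibitor gene Cdkn1a stood at 1.71 (1.58 to 1.85) with miR-25, 0.04 (-0.11 to 0.20) with miR-106b and -0.45 (-0.63 to -0.28) with miR-93. The cyclin gene Ccnd2 stood at 0.99 (0.93 to 1.05), -0.60 (-0.67 to -0.52) and -0.89 (-0.97 to -0.81). E2f1, a transcription factor of the S phase, was lower with all 3, at -1.40 (-1.66 to -1.14), -0.85 (-1.07 to -0.63) and -0.57 (-0.78 to -0.35). The difference between the 3 lists was not tested.

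**Figure D5:**
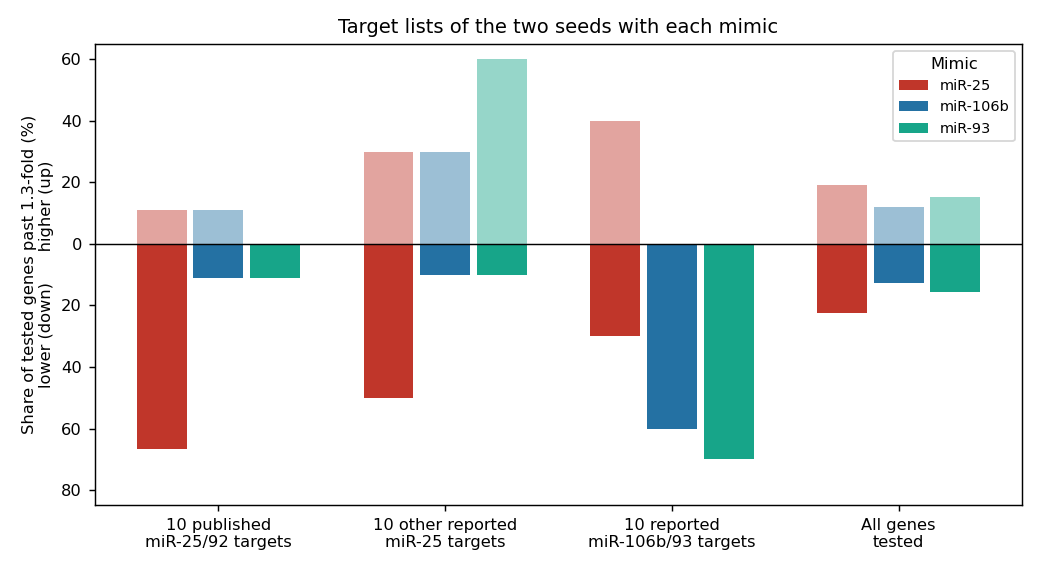
Share of tested genes past 1.3-fold with each mimic against cel-miR-67, lower as dark bars down and higher as pale bars up, for the 9 tested of the 10 members, the other reported miR-25 targets, the reported miR-106b/93 targets and all genes. Lower shares are 66.7%, 11.1% and 11.1% of the members and 30%, 60% and 70% of the miR-106b/93 targets with miR-25, miR-106b and miR-93.

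Genes whose pattern over the 3 mimics was nearest were sought among 4170 genes above RPKM 10 in all libraries, by Euclidean distance over the 3 log2 ratios to the control. Nearest to Hipk3, the member with the lowest ratio, was Srl, which encodes sarcalumenin of the sarcoplasmic reticulum, at a distance of 0.171 and with -1.63, -0.43 and -0.53 for miR-25, miR-106b and miR-93. The next was Serpinh1, a collagen chaperone, with -1.76, -0.30 and -0.44. Nearest to Klf2 were Ctnnd1, encoding a catenin, with 0.43, 0.36 and 0.36, and Tomm34, encoding a cochaperone of mitochondrial import, with 0.38, 0.39 and 0.36. Klf2 rested on 54 to 94 reads a library and its intervals all held 0, so which genes lie nearest to it is uncertain.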

How the data were processed

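The authors checked reads with FASTQC, trimmed them with Cutadapt, aligned them to Rnor_6.0 with STAR (2.7 in the submitters' processing notes), rounded gene counts and deposited RPKM values from edgeR's rpkm function. The counting program is not given in the sources used here. The values of the 4 libraries were identical in the table of the whole series and in each sample's own. RPKM ratios between libraries are ratios of whole numbers times the ratio of library sizes, which was taken from the most common RPKM ratio. From these ratios whole reads were recovered for 15731 genes. For 655 of these a common factor was restored to give a whole gene length. The listed genes held 60.4% to 66.9% of the library sizes so obtained, which were not whole numbers, so the RPKM values may rest on scaled sizes and this share on the same scale. The recovery and the exact Clopper-Pearson intervals were tested on simulated data.

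Groups were taken from the labels. Members were matched by symbol; 176 symbols listed more than once were left out of gene lists. The members, the 12 gene lists and the 5 marker lists were chosen with earlier results of these data known. From each list at most the 3 genes with the largest absolute log2 ratio with miR-25 were named, among those above RPKM 1.0, past 1.3-fold and with an interval off 0, together with the 2 genes nearest in pattern to the members with the lowest and the highest ratio. One gene that this rule selects is not reported here. Hipk1, Hipk2 and Lum were named after their values were seen. Alternatives were an RPKM limit of 2.0 or 0, pseudocounts of 0.1 and 1 RPKM, centring on the median gene, a 1.5-fold limit and an interval off 0. RPKM scaled to the reads on listed genes was chosen after seeing the data. Seed sites in 3′ untranslated regions and the cel-miR-67 sequence were not analysed here. Python 3.11.15 was used with pandas 2.3.3, scipy 1.17.1, numpy 2.4.6 and, for plots, matplotlib 3.10.9.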

Additional observations from a re-analysis of the deposited data

How the results depend on the processing

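Members lower with miR-25 numbered 4 (Hipk3, Fbn1, Map2k4 and Klf4) at 1.5-fold, 5 without Mylip at an RPKM limit of 2.0, with a pseudocount of 1 RPKM or scaled to the reads on listed genes, and 6 under the other alternatives. Members higher with miR-25 numbered 2 (Klf2 and Nox4) with any RPKM above 0, and 0 with a pseudocount of 1 RPKM, at 1.5-fold or with an interval off 0. At 1.5-fold 13.7%, 5.73% and 8.35% of all genes were lower with miR-25, miR-106b and miR-93, and under the scaling 15.9%, 9.08% and 9.65%. With miR-106b the number higher was 0 under the same 3 alternatives, and the number lower was 0 at 1.5-fold and under scaling to listed genes. With miR-93 the number higher was 2 (Klf2 and Dusp10) under that scaling. It raised every log2 ratio by 0.15 with miR-25, 0.08 with miR-106b and 0.15 with miR-93, gave members' medians of -0.42, 0.00 and 0.17, and took the lower share of all called genes from 53.9%, 51.8% and 50.8% to 35.2%, 35.3% and 27.7%. Single-member log2 ratios under the pseudocounts, centring and this scaling gave 180 values, without Nox4 and without miR-93 against miR-106b. Of these values 7 moved beyond their intervals, all under the scaling to listed genes. No direction called reversed under any alternative. No paired analysis was possible because each mimic had 1 library. Depth limits Nox4, Klf2 and Mylip, the members with fewest reads.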

Other observations

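Markers of other cells were read beside the members, with differences as log2 ratios of RPKM over cel-miR-67 and 95% exact intervals in parentheses. With miR-25 6 of 8 smooth muscle and pericyte markers were higher and 2 lower, down to -0.82, against 19.3% and 22.6% of all genes. Their summed RPKM was 2084 with miR-25, 778 with cel-miR-67, 717 with miR-106b and 612 with miR-93. Their median RPKM was 21.2, 14.5, 11.5 and 12.0 in the same order. Cnn1, encoding calponin, stood at 1.65 (1.59 to 1.71) with miR-25, 0.53 (0.47 to 0.59) with miR-106b and -0.96 (-1.05 to -0.88) with miR-93. Tagln, encoding transgelin, stood at 1.45 (1.42 to 1.47), -0.18 (-0.21 to -0.15) and -0.30 (-0.33 to -0.27). Rgs5, a pericyte marker, stood at 1.58 (1.07 to 2.11) with miR-25. Its RPKM was low, at 1.45 with cel-miR-67, 4.31 with miR-25, 1.05 with miR-106b and 0.936 with miR-93.

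On the same scale, among the cardiomyocyte markers Mb, the myoglobin gene, stood at -2.30 (-2.39 to -2.21) and the calcium channel gene Ryr2 at -1.29 (-1.32 to -1.26) with miR-25. Endothelial markers were low in all libraries, with a summed RPKM of 8.56 with cel-miR-67 and 5.75 to 6.80 with the mimics, and of 3 tested 2 were lower (Tek at -1.03 and Egfl7 at -0.93) and 1 higher (Kdr at 0.86) with miR-25. Macrophage markers summed to 18.1 with cel-miR-67 and 13.2 to 15.9 with the mimics, and of 4 tested 2 were lower with miR-25, Mrc1 at -0.96 and Csf1r at -0.85. None of these markers was at 0 in any library.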
